A study of Mus musculus with 9 samples.

Results

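The small leucine-rich proteoglycans (SLRPs) examined here were 9 genes chosen by name: Dcn (decorin), Bgn (biglycan), Aspn (asporin), Lum (lumican), Fmod (fibromodulin), Prelp, Omd (osteomodulin), Ogn (osteoglycin, also called mimecan) and Podn (podocan). All 9 were found among the 50813 genes of the deposited table. RNA-seq was done on Lewis Lung Carcinoma (LLC) cells, a mouse lung tumor line that carried a luciferase reporter in every group and was grown in DMEM with fetal bovine serum. The groups were wild-type cells (WT) and the CD47 KO clones E3 and E5, with 3 libraries each. Both KO clones were made by electroporating Cas9 with a guide RNA against Cd47 and expanding single cells, so that each KO genotype is 1 clone, WT is 1 line, and the effect of losing CD47 cannot be told apart from the difference between one clone and another. The study describes its replicates as independent, and the p-values below measure the spread between replicates of a line, not between clones.

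SLRPs are secreted proteins whose core is built from leucine-rich repeats and which mostly carry chondroitin, dermatan or keratan sulfate chains. They bind collagen fibrils, control fibril width and spacing, and hold growth factors such as TGF-beta in the matrix. Decorin also binds receptor tyrosine kinases including EGFR and Met and dampens their signaling, while soluble biglycan is a ligand of the Toll-like receptors Tlr2 and Tlr4. In tumors, decorin is best known as a product of fibroblasts with growth-restraining activity. Several family members lie next to each other in the genome. Dcn and Lum are neighbors on chromosome 10, with 47.0 kb between them, Aspn, Omd and Ogn lie in a row on chromosome 13, with gaps of 14.9 and 15.2 kb, and Prelp and Fmod are 115.8 kb apart on chromosome 1.

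Levels are given as CPM, which is the count of a gene relative to the total of its library after TMM scaling. Differences were tested by the quasi-likelihood test of edgeR across the 14593 genes that passed a filter on low counts. A gene was called at a Benjamini-Hochberg adjusted p under 0.05. The study's own threshold for a DEG adds an absolute log2 fold change above 1. Total counts ranged from 44257404 to 55095219 per library, and 3 counts in a library corresponded to 0.0555 to 0.066 CPM. Cd47 itself was at 182 ± 3.92 CPM in WT cells, 44.6 ± 6.87 in clone E3 and 17.4 ± 1.66 in clone E5 (SD, n = 3 each), so the labels and the targeted gene matched. Replicate 3 of clone E3 stood apart from its replicates (chi-square per degree of freedom of 186 and 224 against them, and 4.71 to 37.9 in the other pairs). The cells were checked against marker lists. Of 12 lung epithelial markers, 10 stayed under 1 CPM in every library. Among these, Nkx2-1, Epcam, Scgb1a1 and the surfactant genes Sftpa1, Sftpb and Sftpc were at 0. Napsa, Krt19 and Cldn18 were detected at a low level, at 0.174, 0.311 and 0.0833 CPM in WT cells. Krt8 and Krt18 were expressed, at 191 and 264 CPM in WT cells.

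Decorin, biglycan and osteoglycin were the members above 1 CPM in WT cells, and all 3 were called in both clones. Decorin mRNA fell in both KO clones, by 8.73-fold in E3 and 71.2-fold in E5. Biglycan mRNA rose 4.93-fold in E3 and fell 43.3-fold in E5. Osteoglycin rose about equally in both, 2.98-fold and 3.25-fold, as did the much scarcer osteomodulin, 3.46-fold and 3.20-fold. In clone E3 against WT, 4 of the 9 members were called, 3 higher and 1 lower, where 30.5% of all genes tested were called (15.7% higher and 14.7% lower). In clone E5 against WT, 5 were called, 2 higher and 3 lower, where 20.6% of all genes were called (8.96% higher and 11.7% lower). The background in E5 moved with the fit, from 3012 genes called to 1767 without WT replicate 2, 6246 without replicate 3 of clone E3 and 6596 with only the 2 groups compared. Between the clones 3 members were called, all lower in E5, against 31.9% of all genes (14.7% higher and 17.2% lower). All of these calls also passed the fold threshold, which 9.82% of the genes tested passed in E3 (5.43% above 1 and 4.39% under -1), 8.21% in E5 (2.69% above and 5.52% under) and 11% between the clones (3.49% above and 7.52% under). Only 6 members passed the filter on low counts, and which ones did depended on their levels in these same libraries, so these counts describe the members and are no evidence about the family. The comparisons of the clones with WT share the WT libraries.

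The genes called in both clones were Dcn, Bgn, Ogn and Omd, and the 250 bases before their transcription start are shown for that reason, read 5′ to 3′ on the plus strand from the GRCm39 genome. The start is that of the canonical transcript in the GENCODE M39 annotation, which lies 196 bases upstream of the gene start in the deposited table for Dcn, 173 bases upstream for Ogn, and at the same base for Bgn and Omd. Capitals mark matches, on either strand, to any of 4 motifs. These are the TATA box TATAAA, the AP-1 site TGANTCA, the E-box CAGGTG that Snail and Zeb repressors bind, and the GC box GGGCGG.
Dcn, chr10:97315025-97315274: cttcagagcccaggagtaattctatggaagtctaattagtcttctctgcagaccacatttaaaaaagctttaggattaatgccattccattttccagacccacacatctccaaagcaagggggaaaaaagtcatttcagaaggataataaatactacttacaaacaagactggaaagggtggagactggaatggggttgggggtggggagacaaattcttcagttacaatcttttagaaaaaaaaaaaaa
Bgn, chrX:72526958-72527207: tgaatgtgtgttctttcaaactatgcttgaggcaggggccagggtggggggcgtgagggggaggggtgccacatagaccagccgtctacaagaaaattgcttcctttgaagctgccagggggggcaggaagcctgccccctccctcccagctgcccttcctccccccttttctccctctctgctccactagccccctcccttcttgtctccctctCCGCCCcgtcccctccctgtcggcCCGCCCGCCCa
Ogn, chr13:49761099-49761348: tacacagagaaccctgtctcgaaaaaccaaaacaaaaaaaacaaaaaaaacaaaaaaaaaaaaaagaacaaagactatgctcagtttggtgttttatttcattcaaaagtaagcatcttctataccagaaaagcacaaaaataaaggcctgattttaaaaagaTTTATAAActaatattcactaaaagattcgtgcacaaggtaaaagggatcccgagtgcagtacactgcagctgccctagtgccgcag
Omd, chr13:49735688-49735937: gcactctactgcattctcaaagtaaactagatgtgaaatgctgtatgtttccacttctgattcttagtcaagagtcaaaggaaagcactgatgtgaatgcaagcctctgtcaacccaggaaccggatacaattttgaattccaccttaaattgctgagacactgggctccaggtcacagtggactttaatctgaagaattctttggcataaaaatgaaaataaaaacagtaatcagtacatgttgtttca
The Bgn window is rich in runs of C and G and holds 3 GC box matches, the last 2 of which overlap each other. The Ogn window holds a TATA box match 85 bases before the start, overlapping a match on the other strand. The Dcn and Omd windows hold none of the 4 motifs. Over the same windows of 21757 protein-coding genes, 36.3% held a GC box, 11.9% a TATA box, 17.7% the E-box and 6.18% the AP-1 site. A match is a stretch of letters and not a measured binding site.

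Decorin (ENSMUSG00000019929.17, chromosome 10 of GRCm39 from 97315471 to 97354005) binds the surface of collagen fibrils through its core protein. It was measured at 30.1, 23.1 and 21.6 CPM in the WT libraries. In clone E3 the values were 3.78, 1.46 and 3.32 CPM, and in clone E5 they were 0.215, 0.455 and 0.370 CPM. The lines did not overlap, with every E3 library below every WT library and every E5 library below every E3 library. Even so, decorin was not silent in clone E5, where 10, 21 and 20 reads were counted. The log2 fold change was -3.13 in E3 (standard error 0.31, adjusted p = 6.68e-05) and -6.15 in E5 (standard error 0.39, adjusted p = 2.32e-06, edgeR). The fall was deeper in clone E5 by a further -3.03 on the log2 scale (standard error 0.39, adjusted p = 0.00028). With replicate 2 of clone E3, its lowest library, left out, the difference from WT was -2.81.

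**Figure D1:**
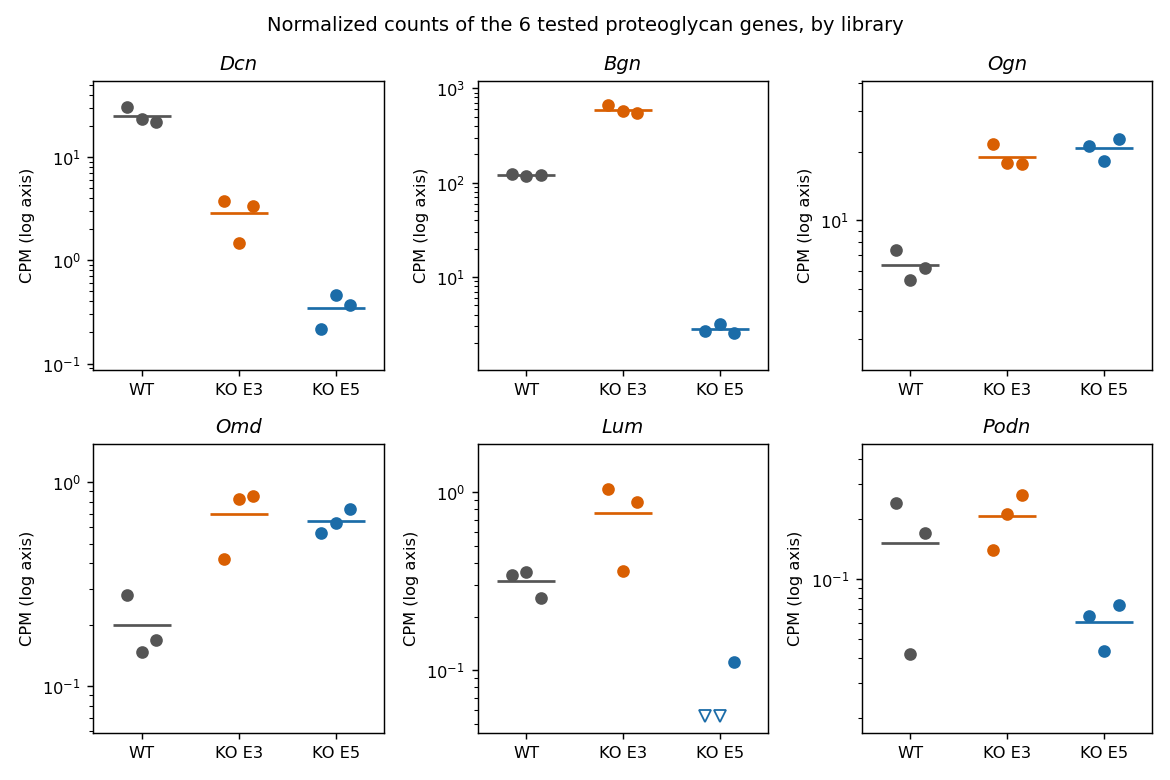
TMM-normalized CPM of the 6 tested SLRP genes (vertical log axes, each panel with its own range) in the 3 libraries of WT, KO E3 and KO E5 cells, where points are libraries, lines are means and open triangles mark libraries at 0 counts. Dcn descends from WT at 21.6 to 30.1 CPM through E3 to E5, Bgn is highest in E3 and lowest in E5, and Ogn and Omd are higher in every KO library than in every WT library.

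Biglycan (ENSMUSG00000031375.19, chromosome X from 72527208 to 72539539), the closest relative of decorin in the family, carries a pair of chondroitin or dermatan sulfate chains and was the most abundant member in WT cells. Its WT libraries lay close together, at 122, 119 and 121 CPM. The E3 libraries stood at 664, 570 and 552 CPM and the E5 libraries at 2.65, 3.14 and 2.57 CPM. Each clone was therefore separated from WT by far more than the spread within a line, in opposite directions. The log2 fold change was 2.30 in E3 (standard error 0.11, adjusted p = 1.02e-06) and -5.43 in E5 (standard error 0.13, adjusted p = 4.04e-09, edgeR). Between the clones the difference was -7.74 (standard error 0.14, adjusted p = 4.55e-10), a 213-fold gap. Ranked by p, Bgn was number 1 of 14593 genes for the difference between the clones, number 3 for E5 against WT and number 13 for E3 against WT.

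Asporin, which belongs with decorin and biglycan to class I of the family, was close to undetected. Its highest library held 6 reads, in clone E3, and 8 of the 9 libraries held 3 reads or fewer, so that no comparison was possible at this depth. Asporin lacks a typical chain attachment site and binds collagen and TGF-beta in cartilage and tooth ligament.

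Among the class II members, several of which carry keratan sulfate chains, osteomodulin and lumican were measurable at a low level. Osteomodulin (ENSMUSG00000048368.10, chromosome 13 from 49735938 to 49746298), a bone matrix protein, was counted with 14, 7 and 8 reads in WT, 21, 39 and 39 in E3 and 26, 29 and 40 in E5. As CPM, the WT libraries held 0.280, 0.147 and 0.169. In E3 they were 0.420, 0.824 and 0.858, and in E5 0.560, 0.629 and 0.740. All KO libraries lay above all WT libraries, and the clones overlapped with each other. The log2 fold change was 1.79 in E3 (standard error 0.37, adjusted p = 0.00473) and 1.68 in E5 (standard error 0.37, adjusted p = 0.00951, edgeR), and -0.11 between the clones (standard error 0.32, adjusted p = 0.814). The call in E5 lay just over the threshold without WT replicate 2, at an adjusted p of 0.0502.

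Lumican (ENSMUSG00000036446.6, chromosome 10 from 97400990 to 97408565), known for ordering the collagen of the cornea, was at 0.341, 0.358 and 0.253 CPM in WT cells. In E3 its values were 1.04, 0.359 and 0.880 CPM, and in E5 they were 0, 0 and 0.111 CPM. Its E3 libraries ranged widely, the lowest of them level with WT. The change of 1.25 in E3 on the log2 scale missed the threshold (standard error 0.53, adjusted p = 0.102), and without replicate 2 of clone E3 it was 1.59 with an adjusted p of 0.0373. In E5 lumican was lower by -2.89 (standard error 0.83, adjusted p = 0.033), a call lost when any 1 of the WT libraries or replicate 1 or 2 of clone E5 was left out (adjusted p = 0.0609 to 0.105). All 6 reads of clone E5 came from replicate 3, and without it the value was -6.93 against WT and -8.18 between the clones, with the remaining E5 libraries at 0. The difference between the clones was -4.15 (standard error 0.75, adjusted p = 0.00206, edgeR). Lumican was thus lower in E5 than in E3, as biglycan and decorin were.

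Fibromodulin and Prelp, both class II members that bind collagen in tendon and cartilage, were not measurable. Fibromodulin had 2 reads in 1 library of clone E3 and 0 in the other 8 libraries, and Prelp had 0 reads in all 9. A count of 0 allows up to 3 reads, which is about 0.06 CPM at this depth. Kera, Epyc, Optc, Nyx and Chad, family genes outside the 9, likewise had at most 4 reads in any library, and Ecm2 had at most 12.

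Osteoglycin (ENSMUSG00000021390.7, chromosome 13 from 49761522 to 49777977), a class III member found in bone, vessel wall and cornea, was at 7.43, 5.49 and 6.16 CPM in WT cells. It was at 21.5, 17.9 and 17.6 CPM in E3 and 21.2, 18.2 and 22.7 CPM in E5. Every KO library held more than any WT library, and the clones overlapped. The log2 fold change was 1.58 in E3 (standard error 0.15, adjusted p = 5.19e-05) and 1.70 in E5 (standard error 0.15, adjusted p = 2.36e-05, edgeR). The clones differed from each other by 0.12 (standard error 0.14, adjusted p = 0.537), which was within the spread between replicates. Osteoglycin was the only member above 1 CPM that rose in both clones.

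Osteoglycin, osteomodulin and asporin lie inside the gene Cenpp, which encodes a centromere protein and runs on the opposite strand. Ogn shares 1155 exon bases with Cenpp in the GENCODE M39 annotation, Aspn shares 267 and Omd shares 0. Cenpp was at 8.67 ± 0.27 CPM in WT, 12.2 ± 1.78 in E3 and 15.3 ± 0.97 in E5 (SD, n = 3), with log2 fold changes of 0.49 (adjusted p = 0.0121) and 0.82 (adjusted p = 0.000949, edgeR). The library kit keeps strand, but the strand setting of the counting is not given in the sources used here, and the part of Cenpp reads in the counts of Ogn was not tested. The rise of Cenpp was smaller than that of Ogn in both clones.

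Podocan (ENSMUSG00000028600.17, chromosome 4 from 107871988 to 107889534), a class V member described in kidney and vessel wall, was near the detection limit. Its libraries held 12, 2 and 8 reads in WT, 7, 10 and 12 in E3 and 3, 2 and 4 in E5. WT libraries overlapped with both clones, while the E3 and E5 libraries did not overlap. The log2 fold changes against WT were 0.42 (standard error 0.51, adjusted p = 0.571) in E3 and -1.27 (standard error 0.63, adjusted p = 0.186) in E5. Between the clones the value was -1.69 (standard error 0.60, adjusted p = 0.0533, edgeR), and it passed the threshold with upper-quartile scaling (adjusted p = 0.0455) and without WT replicate 2 (adjusted p = 0.0267).

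**Figure D2:**
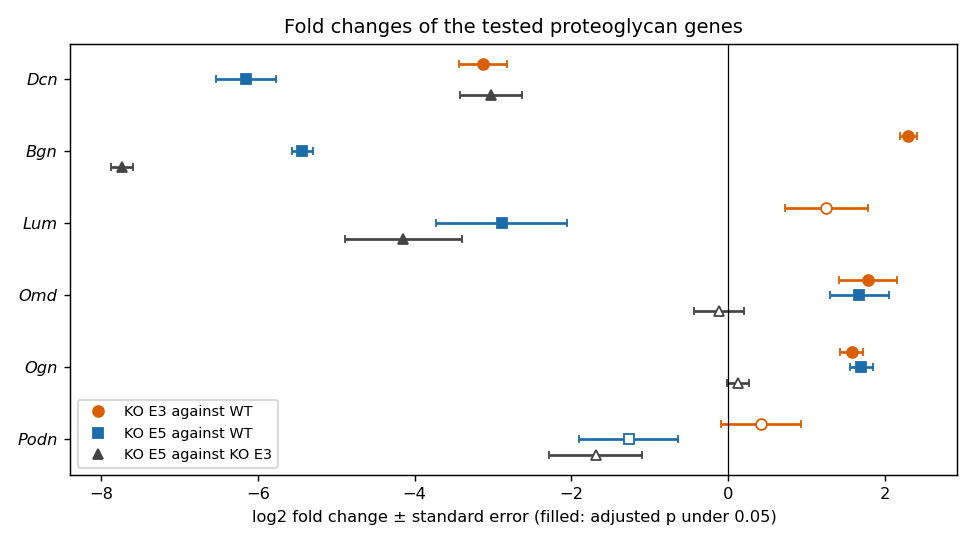
Log2 fold changes (horizontal axis) with standard errors of the 6 tested SLRP genes for E3 against WT (circles), E5 against WT (squares) and E5 against E3 (triangles), filled where the adjusted p was under 0.05. Dcn lies left of 0 in both clones, Bgn on opposite sides at 2.30 and -5.43, and Ogn and Omd right of 0 in both clones.

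To compare the members with each other, CPM was divided by gene length in kb, taken as the union of all annotated exons. On this scale of level, Bgn was first in WT cells at 17.9 ± 0.269 CPM per kb (SD, n = 3), followed by Dcn at 1.91 ± 0.348 and Ogn at 1.04 ± 0.161. The rest were at or below 0.0816. In clone E3, Bgn stood at 88.1 ± 8.91, Ogn was next at 3.10 ± 0.359, and Omd at 0.288 ± 0.1 and Dcn at 0.219 ± 0.0943 did not differ beyond their spread. In clone E5 first place passed to Ogn, at 3.37 ± 0.376, with Bgn at 0.413 ± 0.0461, Omd at 0.264 ± 0.0372 and Dcn at 0.0266 ± 0.00933. Summed over the 9 members, the level was 21.0 ± 0.777 CPM per kb in WT, 91.9 ± 9.25 in E3 and 4.10 ± 0.359 in E5.

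As shares of that sum, biglycan made up 85.2% ± 2.06 in WT (SD, n = 3), 95.9% ± 0.179 in E3 and 10.2% ± 2.05 in E5. Osteoglycin made up 4.93% ± 0.579 in WT, 3.36% ± 0.0537 in E3 and 82.1% ± 2.35 in E5. Decorin made up 9.09% ± 1.33 in WT, 0.236% ± 0.0945 in E3 and 0.659% ± 0.27 in E5. Among the 9 members, the summed level of clone E3 was thus nearly all biglycan, and that of clone E5 mostly osteoglycin at a lower sum. Family genes outside the 9 were not part of the sum. One of them, Tsku, was at 43.4 CPM in E5, where Ogn was at 20.7 CPM, both without length scaling. The annotation lists long alternative transcripts for Dcn and Bgn, and with the length of the canonical transcript, a choice made after seeing the data, biglycan was 20.9%, osteoglycin 71.8% and decorin 1.03% in E5. On that length osteoglycin was 2.21% in WT and 1.46% in E3. These shares are descriptions and were not tested.

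**Figure D3:**
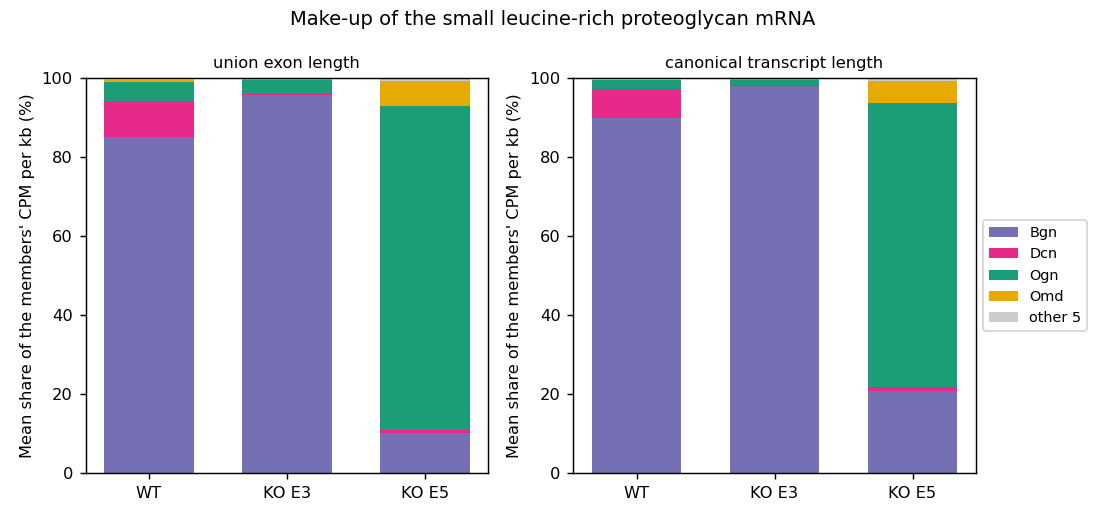
Mean share (vertical axis, percent) of each SLRP gene in the summed CPM per kb of the 9 members in WT, KO E3 and KO E5 cells, for 2 definitions of gene length. Biglycan fills most of the WT and E3 bars and osteoglycin most of the E5 bar under both definitions.

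Of 9 further family genes, 3 were tested. Tsku (tsukushi), a secreted inhibitor of BMP and Wnt signaling, fell in both clones, from 71.7 ± 2.27 CPM in WT to 34.8 ± 2.05 in E3 and 43.4 ± 5.86 in E5 (SD, n = 3), with log2 fold changes of -1.04 (adjusted p = 0.000116) and -0.72 (adjusted p = 0.00111, edgeR). Podnl1 (podocan-like 1) rose in both, from 4.73 ± 0.282 CPM to 10.6 ± 1.51 and 9.42 ± 1.05, with log2 fold changes of 1.17 (adjusted p = 0.000254) and 0.99 (adjusted p = 0.000744). Chadl passed in neither. Tsku, Dcn and Bgn were thus the family genes at 10 CPM or more in WT cells, and of these only Dcn and Tsku were lower in both clones.

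The genes near each member were examined because family genes lie in clusters. Within 500 kb of Dcn, 12 other genes are listed and only Lum was tested. Near Bgn, 18 of 49 genes were tested, with 1 higher and 2 lower in E3 and 4 higher and 2 lower in E5. Of all genes tested, 30.5% were called in E3 and 20.6% in E5. The median log2 fold changes of the tested neighbors of Bgn were 0.02 and 0.21, against 2.30 and -5.43 for Bgn itself. Renbp, which encodes a renin-binding protein, was the neighbor with the lowest value in E5, at -6.33 (adjusted p = 0.000106, edgeR), beyond that of Bgn, and in E3 it was at 0.52 (adjusted p = 0.298). Near Ogn, 10 of 30 genes were tested, with 2 higher and 2 lower in E3 and 3 higher and 0 lower in E5, Omd and Cenpp among the higher ones in both. The median of the tested neighbors of Ogn was -0.33 in E3 and 0.28 in E5.

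**Figure D4:**
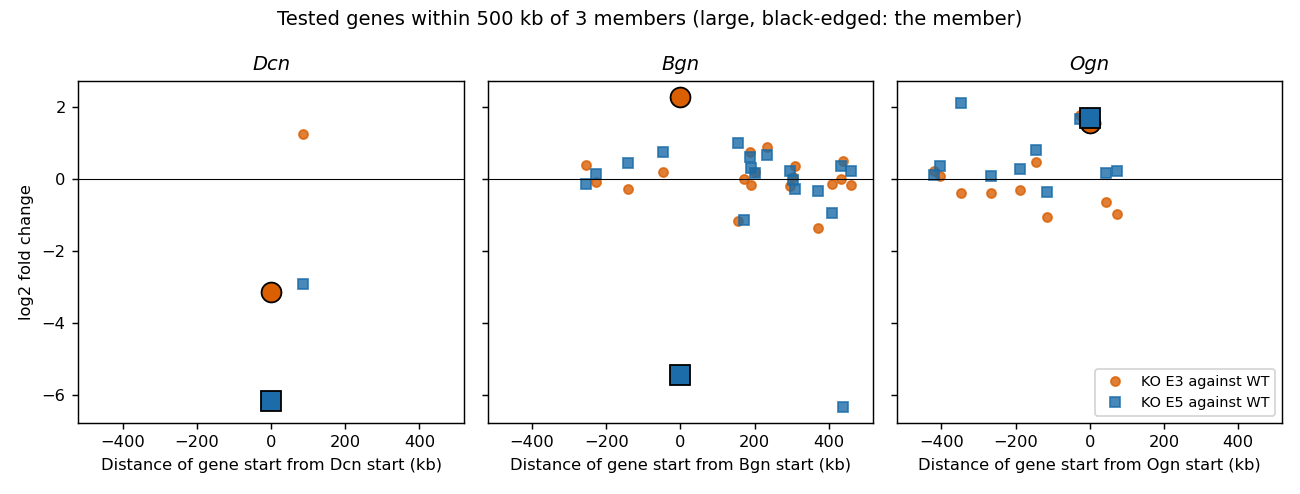
Log2 fold changes (vertical axis) of the tested genes whose start lies within 500 kb of Dcn, Bgn or Ogn, by distance in kb (horizontal axis), for E3 against WT (circles) and E5 against WT (squares), with the member itself drawn large at 0. Most genes near Bgn stay close to 0 while Bgn lies at 2.30 in E3 and -5.43 in E5.

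The other genes of SLRP biology were taken from 8 lists with 123 genes, 81 of them tested. The enzymes that attach and build chondroitin and dermatan sulfate chains had 4 of 18 tested genes higher and 2 lower in E3, and 2 higher and 1 lower in E5, with median log2 fold changes of 0.03 and 0.01. Over all genes tested the medians were 0.01 in E3 and -0.00231 in E5, with 30.5% called in E3 and 20.6% in E5, so the shares called in this list were near the background. Pxylp1, a phosphatase that acts on the linkage region of the chains, rose in both clones, from 8.11 ± 0.132 CPM to 19.1 ± 2.02 and 13.5 ± 0.74 (adjusted p = 3.73e-05 and 0.000862, edgeR).

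Among the keratan sulfate enzymes, 1 of 5 tested genes was higher and 4 lower in E3, and 1 higher and 1 lower in E5. Of all genes tested, 15.7% were higher and 14.7% lower in E3, and 8.96% were higher and 11.7% lower in E5. The sulfotransferase Chst2 fell from 26.5 ± 0.846 CPM in WT cells to 17.4 ± 1.94 in E3 and to 0 reads in each E5 library (adjusted p = 0.00553 and 4.03e-08, edgeR). Against the level of 3 reads per library, Chst2 was at least 429-fold lower in E5 than in WT. Chst1, which sulfates galactose in the same chains, rose in both clones, from 28.7 ± 0.857 to 38.4 ± 3.69 and 67.2 ± 2.14 CPM (adjusted p = 0.00746 and 1.09e-05, edgeR).

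Of the matrix partners of SLRPs, which include the fibril-forming collagens, 7 of 16 tested genes were higher and 1 lower in E3, while 0 were higher and 8 lower in E5. Over all genes, 15.7% were higher and 14.7% lower in E3, and 8.96% were higher and 11.7% lower in E5. The median log2 fold changes of the list were 0.52 and -1.10. Levels within the list differed widely. Col3a1, at 2789 CPM in WT, was higher in E3 (0.50, adjusted p = 0.00916) and did not pass in E5 (0.21, adjusted p = 0.240, edgeR). Fn1, at 1929 CPM in WT, passed in neither clone (-0.81 and -0.66). Col1a2, Col2a1, Col12a1, Col14a1 and Matn3 were each under 1 CPM in WT. Col5a2, a chain of the collagen that starts fibrils, was called lower in both clones, from 1.44 ± 0.286 CPM to 0.259 ± 0.0414 and 0.119 ± 0.0848 (adjusted p = 0.000526 and 0.000109, edgeR). Col5a1, a more abundant chain of the same collagen, was at 394 CPM in WT. It did not pass in E3 (0.31, adjusted p = 0.116) and was lower in E5 (-0.85, adjusted p = 0.0016, edgeR). The list of proteases that mature or cut SLRPs had 4 of 7 tested genes higher and 0 lower in E3 and 0 higher and 5 lower in E5. The list also holds Pcolce and Pcolce2, which enhance a procollagen protease and are not proteases themselves, and Pcolce was among those higher in E3. Mmp3, a matrix metalloproteinase that cleaves decorin, rose from 41.8 ± 2.48 CPM to 114 ± 15.6 in E3 and fell to 6.77 ± 0.506 in E5 (adjusted p = 2.09e-05 and 3.36e-07, edgeR).

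Among receptors, 1 of 10 tested genes was higher and 1 lower in E3, and 2 were higher and 2 lower in E5, with medians of -0.04 and -0.17, where 30.5% and 20.6% of all genes were called. Egfr and Met, named above as kinases that decorin binds, passed in neither clone (log2 fold changes of 0.26 and -0.13 for Egfr and -0.44 and -0.21 for Met). Of the other tested receptor kinases in the list, Igf1r and Insr also passed in neither. Pdgfra was higher in E3 (0.97, adjusted p = 0.00431) and did not pass in E5 (-0.55, adjusted p = 0.0765, edgeR). Tlr2 was called lower in both, from 4.22 ± 0.474 CPM to 2.82 ± 0.42 and 2.55 ± 0.43 (adjusted p = 0.0303 and 0.0159, edgeR). Tlr4, at 55.8 CPM in WT, passed in neither (-0.15 and -0.28, adjusted p = 0.672 and 0.448, edgeR). Of the growth factors that SLRPs hold, 5 of 9 were higher and 2 lower in E3, and 2 were higher and 3 lower in E5. Of all genes tested, 15.7% were higher and 14.7% lower in E3, and 8.96% were higher and 11.7% lower in E5. Tgfb3 was called higher in both clones (log2 fold changes of 0.56 and 0.92). Tgfb1 was called higher in E3 (0.36) and did not pass in E5 (-0.34), and Tgfb2 passed in neither. Vegfa fell in both, from 179 ± 3.35 CPM to 69.5 ± 12.5 and 117 ± 18.8 (adjusted p = 0.000155 and 0.016), and Ccn4, a matricellular protein, rose in both, from 10.5 ± 1.13 CPM to 27.6 ± 6.04 and 16.1 ± 0.595 (adjusted p = 0.000167 and 0.0198, edgeR). Other proteoglycan core proteins had 1 of 13 higher and 3 lower in E3, and 2 higher and 1 lower in E5. Cspg5, a neural proteoglycan at 0.636 ± 0.0889 CPM in WT, was the one called lower in both, and it had at most 3 reads in each E5 library.

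**Figure D5:**
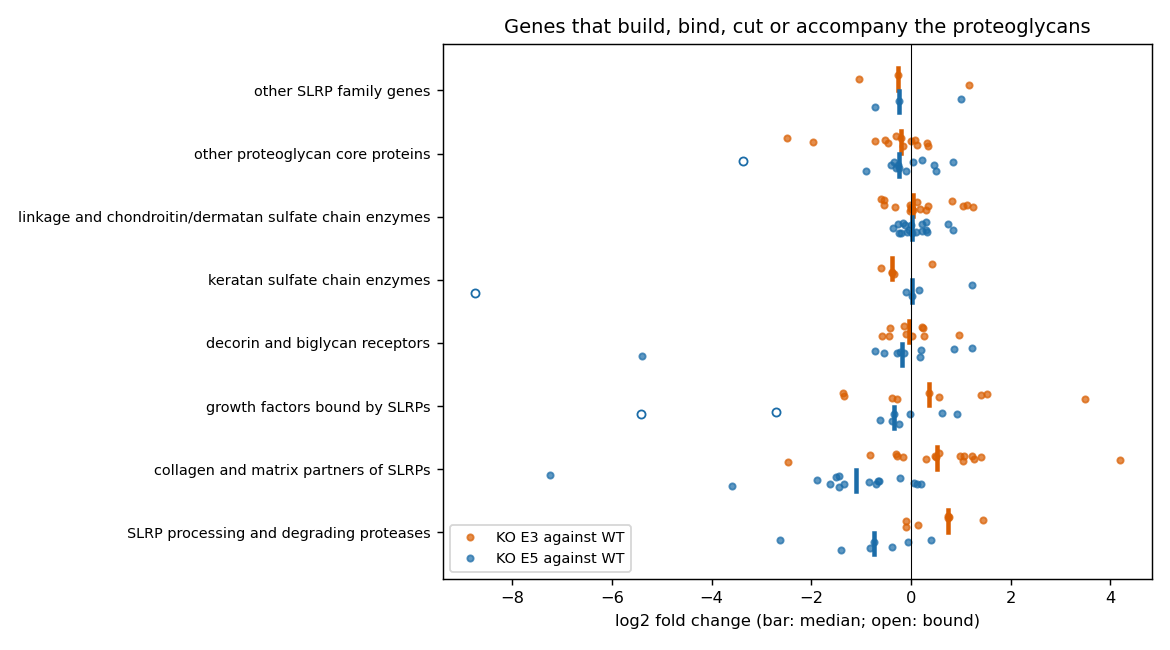
Log2 fold changes (horizontal axis) against WT of every tested gene in 8 lists around the SLRPs, for E3 (orange) and E5 (blue), with bars at the medians and open points for genes with 3 counts or fewer in every library of a group, drawn at their bound. The medians of the collagen and protease lists lie to the right of 0 in E3 (0.52 and 0.74) and to the left in E5 (-1.10 and -0.74), with single genes on either side.

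Markers of fibroblasts, the cells that make most decorin in tissue, were followed in the same libraries. Leaving out Dcn and Lum, 14 markers were listed, of which 8 were tested, 6 stayed under 1 CPM in every library, and Thy1, Tcf21 and Postn were at 0 throughout. Their summed level was 95.1 to 99.5 CPM in WT, 160 to 179 in E3 and 111 to 129 in E5. Of the 8 tested, 4 were higher and 1 lower in E3, and 1 was higher and 3 lower in E5, where 30.5% and 20.6% of all genes were called. Twist2, at 59.7 CPM in WT, held most of the WT sum, and single markers differed in direction. In WT, E3 and E5 in turn, Pdgfra was at 25.9, 50.7 and 17.7 CPM and Pi16 at 1.64, 0.376 and 0.698. Dpt was at 5.26, 30.9 and 19.5 CPM, Pdgfrb at 1.32, 5.56 and 0.312, and Acta2 at 1.58, 2.30 and 0.0874. The part of these markers in the results for decorin and the other members was not tested. Lung epithelial markers had sums of 451 to 459 CPM in WT, 128 to 199 in E3 and 897 to 958 in E5, nearly all of it Krt8 and Krt18, and their part was not tested either. Leukocyte markers summed to 2.91 to 3.68 CPM over all 9 libraries, most of it Cd68. Endothelial markers summed to 9.07 to 31.0 CPM, nearly all of it Egfl7, while Tie1, Emcn and Cldn5 were at 0. In bulk RNA, fewer cells that make a transcript and less of it per cell cannot be told apart.

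The pattern of Dcn over the libraries was compared with that of 10392 genes above an average log2 CPM of 1, by the root mean square difference of log2 CPM from the WT mean over 9 libraries. The most alike were Arhgdib (0.95), Acp3, an acid phosphatase (0.99), Thsd4, a thrombospondin-domain matrix protein (1.12), Mapkapk3, a kinase downstream of p38 (1.42), and Csn3, a casein (1.47). The choice by likeness to Dcn fixed that they were lower in both clones and lowest in E5, with Mapkapk3 at 0 reads in every E5 library. Arhgdib went from 5.50 CPM in WT to 0.698 in E3 and 0.174 in E5. Even for these genes the difference from the Dcn profile was about 1 on the log2 scale or more.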

How the data were processed

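The 9 libraries, 3 for each of WT, KO E3 and KO E5, were grouped by their labels. The authors deposited untransformed read counts for each gene, from reads trimmed with Trimmomatic and mapped by STAR on GRCm39. How reads were assigned to genes, with which strand setting and annotation release, is not given in the sources used here. Low genes were removed with filterByExpr (at a minimum count of 10 and a minimum total of 15), and the rest were scaled by TMM and fitted in 1 model of the 3 lines with the quasi-likelihood test of edgeR (version 4.0.16, R version 4.3.3), with Benjamini-Hochberg adjustment. The code was tested on simulated data. A neighbor of Ogn called in E5 is not reported here by name. A standard error is the size of the log2 fold change divided by the root of F. Members under 1 CPM rest on few reads. Alternatives were DESeq2 (version 1.42.0), its size factors, upper-quartile scaling, other filters, only the groups compared, a replicate block, and each library left out. Lengths and starts came from GENCODE M39, which held 50267 of the 50813 genes by identifier. From each list the most negative and most positive gene called alike in both clones were named, or the one with the smallest adjusted p, as were the 5 genes most like Dcn. Egfr, Met, Igf1r, Insr, Pdgfra, Tlr4, Tgfb1, Tgfb2, Tgfb3, Renbp, Pcolce and Pcolce2 were named after their values were seen. The same holds for Col1a2, Col2a1, Col3a1, Col5a1, Col12a1, Col14a1, Fn1 and Matn3, and for the markers Napsa, Krt19, Cldn18, Dpt, Pdgfrb and Acta2. The members and lists were chosen with earlier results of these data known.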

Additional observations from a re-analysis of the deposited data

Results flagged for a closer look

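For 3 members the effect in clone E5 differed from that in clone E3 by the test of the difference itself (edgeR, adjusted over all genes tested). The differences, E5 minus E3 on the log2 scale, were -7.74 for Bgn, which moved in opposite directions in the clones, -3.03 for Dcn, which fell in both and further in E5, and -4.15 for Lum, where E5 held 6 reads in all. Every E5 library lay below every E3 library for each of the 3. They were picked by a test on these same libraries, so the separation is no added evidence. Podn, which was not called, also had every E5 library below every E3 library. The test compares 1 clone with another.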

How the results depend on the processing

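Dcn, Bgn and Ogn kept their direction and call against WT under every alternative run, with log2 fold changes in E3 of -3.39 to -2.81, 2.22 to 2.35 and 1.47 to 1.70 when 1 library at a time was left out. Members called stayed between 4 and 5 in E3, 3 and 5 in E5 and 3 and 4 between the clones with a library left out. In E5 the number was 3 when each library had to hold 10 counts or more, where only 3 members were tested, and 3 without WT replicate 2, where Lum and Omd missed the threshold. Signs turned only for values that passed no test. Podn in E3 ranged from -0.014 (without WT replicate 2) to 0.93 with a library left out, and Omd between the clones from -0.38 to 0.066, at 0.025 without replicate 2 and 0.066 without replicate 3 of clone E3. Over all genes, 4445 were called in E3 (2875 to 6423 with a library left out, lowest without WT replicate 2) and 3012 in E5 (1767 to 6246, highest without replicate 3 of clone E3, and 1767 to 1953 without any 1 WT library or replicate 1 or 2 of clone E5). Fitting only the 2 groups compared gave 6596 in E5, and the cause was not tested. The background share in E5 therefore moves with the fit. Libraries with the same replicate number did not deviate together (correlations of -0.17 to 0.0472, own number highest in 1 of 18 comparisons), so the numbers do not pair them. With a replicate block, 4, 5 and 3 members and 3664, 2309 and 3887 genes were called in the 3 comparisons. Lum, Omd and Podn rest on few reads, which limits them.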
